A study of Saccharomyces cerevisiae with 18 samples.

Results

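Transcripts of 10 genes that make, desaturate, hydroxylate or activate fatty acids were followed in Saccharomyces cerevisiae grown with and without oxygen. The genes were ACC1 and HFA1 (acetyl-CoA carboxylases), FAS1 and FAS2 (fatty acid synthase), ELO1 (elongase), OLE1 (desaturase), SCS7 and SUR2 (lipid hydroxylases), and FAA1 and FAA4 (acyl-CoA synthetases). They were chosen by gene symbol in the annotation of the Yeast Genome 2.0 Array, and all 10 were found, each with 1 probe set, among 5498 S. cerevisiae probe sets with 1 gene (5449 genes). All 10 lay above the background level on all 18 arrays. The background level is the 95th percentile of the Schizosaccharomyces pombe probe sets on the same array.

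In yeast, acetyl-CoA carboxylase supplies malonyl-CoA, fatty acid synthase builds saturated acyl chains from it in the cytosol, and elongases of the endoplasmic reticulum lengthen them. The desaturase and both hydroxylases use molecular oxygen as a substrate, so cells without oxygen cannot introduce the double bond of oleate or palmitoleate and depend on supplied unsaturated fatty acids. Acyl-CoA synthetases activate fatty acids that enter from the medium. The growth protocol in the labels names the medium (SD-SCAA) and no lipid supplement.

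All 3 strains had the host CEN. PK 530-1C, in which the native triose phosphate isomerase gene TPI1 is deleted and a plasmid copy of POT1, the fission yeast isomerase gene tpi1, permits growth on glucose. NC carried that plasmid without amylase and served as control. AAC carried an amylase gene with alpha factor leader under the TPI1 promoter and is labelled as the high producer. AAP carried the amylase under the TEF1 promoter and is labelled as producing less. Each strain is 1 construct, grown in aerobic and in anaerobic batch culture to an optical density of about 1, with 3 biological replicates in each of the 6 groups. The signals are deposited values, read as log2 from their range, so a difference of 1 unit is taken as a doubling. Array medians lay between 7.08 and 7.13, and the number of arrays limits the precision.

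The isomerase gene on the plasmid separated the strains. The S. pombe tpi1 probe set averaged 6.24 ± 0.0991 in aerobic NC and 9.23 ± 0.229 in aerobic AAC (log2 signal, SD, n = 3), while the host TPI1 was at background on all 18 arrays. Its anaerobic means were 6.71 in NC, 9.92 in AAC and 12.45 in AAP. In aerobic AAP it read 12.42, 12.38 and 9.24. The last of these, the array labelled AAP aerobic 3, thus read at the level of AAC for this probe set. Its mean Pearson r across genes was 0.993 with the arrays of aerobic AAC and 0.978 with the remaining arrays of aerobic AAP. Oxygen effects of the 10 genes in AAP are also given without this array. So are counts and calls of the 10 genes, and counts of related gene lists, that changed without it. Strain and plasmid isomerase signal cannot be told apart in comparisons between strains.

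Without oxygen, 6 of the 10 genes rose and 3 fell in the mean of the 3 strains, and SCS7 did not pass the test. SUR2 rose 3.14-fold and FAA1 fell 6.14-fold, and smaller rises were seen for FAA4 (1.83-fold), OLE1 (1.52-fold), FAS1 (1.31-fold), FAS2 (1.23-fold) and ACC1 (1.18-fold). ELO1 fell 2.06-fold and HFA1 fell 1.14-fold. The test was limma across all probe sets, with Benjamini-Hochberg adjusted p under 0.05 as threshold. By the same rule 61.6% of all probe sets passed (31.2% higher, 30.4% lower), so a call for oxygen was common in these arrays. The median size of the log2 difference was 0.50 over the 10 genes and 0.13 over all probe sets. The 10 genes were chosen with earlier results of these data known. All 10 lay above background, as did the means of 5017 of all 5498 probe sets. The 2 medians are thus a description, and their difference was not tested. For OLE1, FAS1, ELO1, SUR2, FAA1 and FAA4 the 9 aerobic and 9 anaerobic arrays did not overlap. The share of all probe sets without such overlap is not given, so this describes these genes only. The count of genes that passed was 6 higher and 3 lower also without the array labelled AAP aerobic 3, where 66.8% of all probe sets passed.

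**Figure D1:**
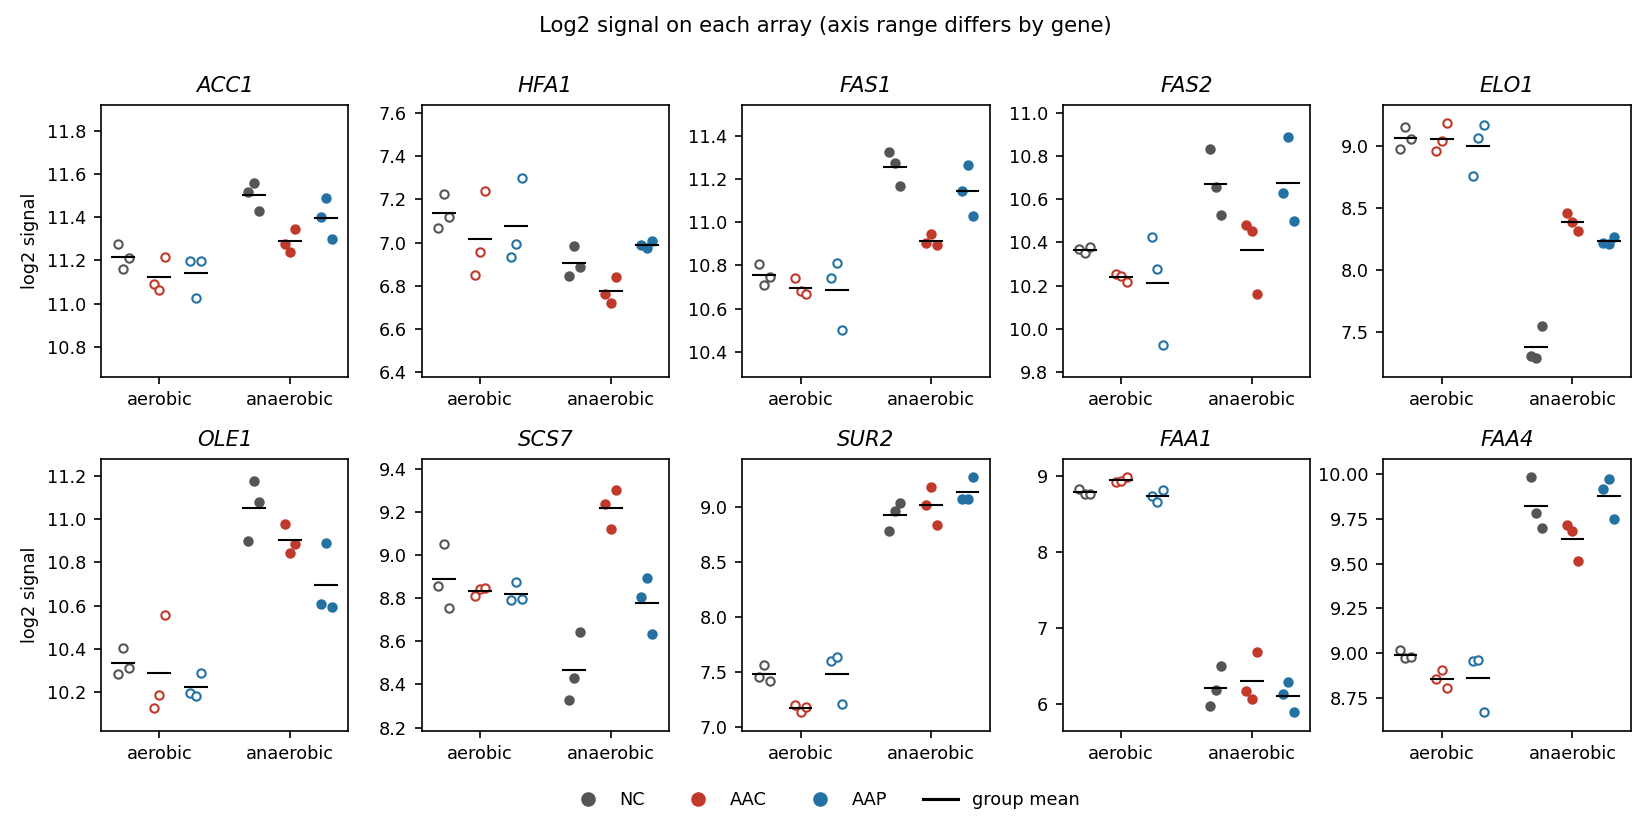
Log2 signal (vertical axis, range set per gene) of the 10 genes on each array, with 1 point per array, open for aerobic and filled for anaerobic cultures of NC, AAC and AAP, and a line at each group's mean of 3. FAA1 lies between 8.66 and 8.99 with oxygen and between 5.88 and 6.68 without it, and anaerobic ELO1 is lower in NC (7.29 to 7.55) than in AAC (8.31 to 8.46) and AAP (8.21 to 8.27).

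The carboxylases moved little, and in opposite directions. ACC1 (YNR016C), the cytosolic enzyme that commits acetyl-CoA to fatty acid synthesis, read 11.27, 11.16 and 11.21 in aerobic NC and 11.52, 11.56 and 11.43 in anaerobic NC. In AAC its aerobic values were 11.09, 11.06 and 11.22 and its anaerobic values 11.28, 11.24 and 11.35. In AAP it read 11.20, 11.03 and 11.20 with oxygen and 11.40, 11.49 and 11.30 without. The anaerobic arrays were the higher ones within each strain, without overlap. ACC1 rose by a log2 difference of 0.24 ± 0.036 (SE) in the mean of the strains (limma adjusted p = 3.93e-05). Its AAP difference was 0.26, and 0.28 without the array labelled AAP aerobic 3. In AAP it passed in 12 of 13 alternative limma fits, with a highest adjusted p of 0.127.

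HFA1 (YMR207C), which encodes the mitochondrial acetyl-CoA carboxylase, fell by 0.19 on the log2 scale in that mean (SE 0.055, adjusted p = 0.00820). Its group means ran from 7.02 to 7.14 with oxygen and from 6.78 to 6.99 without. In single strains HFA1 did not pass: the log2 difference was -0.23 in NC (adjusted p = 0.0541), -0.24 in AAC (0.0512) and -0.09 in AAP (0.510). Without the array labelled AAP aerobic 3 the AAP value was 0.03 (adjusted p = 0.834), of opposite sign and also short of the threshold. HFA1 and ACC1 are paralogs, and whether the HFA1 probes also bind ACC1 transcripts was not tested.

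Both subunit genes of the cytosolic fatty acid synthase rose in the mean of the strains. FAS1 (YKL182W), for the beta subunit, read 10.81, 10.71 and 10.75 in aerobic NC and 11.33, 11.28 and 11.17 in anaerobic NC. The AAC values were 10.74, 10.68 and 10.67 with oxygen and 10.90, 10.94 and 10.89 without. The AAP values were 10.74, 10.81 and 10.50 with oxygen and 11.14, 11.27 and 11.03 without. The anaerobic AAC arrays were thus the lowest of the anaerobic arrays for FAS1, though above all aerobic ones. Its log2 difference was 0.39 ± 0.042 (SE) in the mean of the strains (adjusted p = 7.29e-07). In AAP it was 0.46, and 0.37 without the array labelled AAP aerobic 3 (adjusted p = 0.000116 and 0.000227).

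FAS2 (YPL231W), for the alpha subunit, was less regular. It averaged 10.37 ± 0.015, 10.24 ± 0.019 and 10.21 ± 0.257 (SD, n = 3) in aerobic NC, AAC and AAP. Without oxygen the means were 10.67 ± 0.154, 10.37 ± 0.177 and 10.67 ± 0.199 in the same order. The wide spread in aerobic AAP came from values of 10.43, 10.28 and 9.93, the last on the array labelled AAP aerobic 3. In the mean of the strains FAS2 rose by 0.30 ± 0.071 (SE, log2) with adjusted p = 0.00175. In AAC alone the aerobic and anaerobic arrays overlapped, and the difference of 0.13 did not pass (adjusted p = 0.427). The AAP difference of 0.46 was 0.32 without the array labelled AAP aerobic 3, and it passed in both cases (adjusted p = 0.00717 and 0.0303). It passed in 11 of 13 alternative limma fits, with a highest adjusted p of 0.0665.

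ELO1 (YJL196C), the elongase that acts on medium-chain acyl groups, fell in all 3 strains, and most in NC. In NC it read 8.98, 9.16 and 9.06 with oxygen and 7.31, 7.29 and 7.55 without. In AAC it read 8.96, 9.04 and 9.19 with oxygen and 8.46, 8.39 and 8.31 without. In AAP it read 8.76, 9.07 and 9.17 with oxygen and 8.22, 8.21 and 8.27 without. The aerobic arrays of the 3 strains overlapped, and the anaerobic NC arrays lay below all others. The fall was 3.21-fold in NC (log2 difference -1.68, adjusted p = 7.23e-10), 1.60-fold in AAC (-0.68, adjusted p = 2.92e-05) and 1.70-fold in AAP (-0.77, adjusted p = 9.58e-06). The AAP fall was 1.60-fold (-0.68, adjusted p = 3.71e-05) without the array labelled AAP aerobic 3.

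Of 5 other genes of elongation, 4 rose in the mean of the strains and none fell, beside 31.2% of all probe sets higher and 30.4% lower: PHS1, the 3-hydroxyacyl-CoA dehydratase, by 0.67, ELO3, the elongase for very long chains, by 0.35, IFA38, the 3-ketoreductase, by 0.32, and TSC13, the enoyl reductase, by 0.15 (log2, adjusted p from 5.49e-07 to 0.00731). ELO2 showed 0.06 (adjusted p = 0.331). In single strains 2 of the 5 passed in NC, 4 in AAC and 4 in AAP, beside 50.3%, 44.5% and 38.4% of all probe sets. Without the array labelled AAP aerobic 3, ELO3 also passed in NC and TSC13 no longer passed in AAP. The count was then 3 in NC and 3 in AAP, beside 56.2% and 41.9% of all probe sets.

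OLE1 (YGL055W), the only acyl-CoA desaturase of this yeast, rose in each strain although its reaction needs oxygen. In NC it read 10.28, 10.40 and 10.31 with oxygen and 10.90, 11.18 and 11.08 without. In AAC the aerobic values were 10.12, 10.18 and 10.56 and the anaerobic values 10.98, 10.84 and 10.89. In AAP it read 10.19, 10.18 and 10.29 with oxygen and 10.61, 10.89 and 10.59 without. The highest aerobic array (AAC replicate 3) came just below the lowest anaerobic one (AAP replicate 3). The log2 rise was 0.72 in NC, 0.61 in AAC and 0.47 in AAP (0.51 without the array labelled AAP aerobic 3), and 0.60 ± 0.060 (SE) in their mean (adjusted p = 3.37e-07). None of the 3 interaction tests for OLE1 passed (adjusted p from 0.262 to 0.738).

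Among 6 regulators of OLE1 and of phospholipid genes, 2 rose and 3 fell, beside 31.2% of all probe sets higher and 30.4% lower. MGA2, the membrane-bound activator of OLE1 that is freed by proteolysis, rose 2.77-fold (log2 difference 1.47 ± 0.056 SE, adjusted p = 2.03e-12). It read 6.79, 6.77 and 6.77 in aerobic NC and 8.40, 8.67 and 8.72 in anaerobic NC. In AAC it went from 7.00, 6.92 and 7.07 to 8.25, 8.37 and 8.32, and in AAP from 6.86, 6.71 and 7.08 to 8.18, 8.31 and 8.00. The anaerobic arrays stood above the aerobic arrays in all 3 strains for MGA2. Its paralog SPT23 fell by 0.19, OPI1, the repressor of phospholipid genes, fell by 0.19, and INO4, a subunit of their activator, rose by 0.22. UBX2, which takes part in freeing both activators and was named after its values were seen, is the third of the falls, with -0.09 (adjusted p = 0.0400). That call ended when any of 11 single arrays was left out, and the value was 0.01 after a trend with coding length was removed. Without the array labelled AAP aerobic 3, INO2 also passed as lower. The counts were then 2 higher and 4 lower, beside 32.7% and 34.1% of all probe sets.

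All 3 genes of electron transfer at the endoplasmic reticulum changed in the mean of the strains, where 61.6% of all probe sets did. NCP1, the NADPH-cytochrome P450 reductase, rose 1.96-fold (log2 0.97), CBR1, a cytochrome b5 reductase, rose by 0.47 and CYB5, cytochrome b5, fell by 0.39 (adjusted p from 4.19e-10 to 3.49e-06). In AAC alone CYB5 did not pass, so that 2 of the 3 did, where 44.5% of all probe sets passed.

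The pair of lipid hydroxylases behaved differently. SUR2 (YDR297W), which hydroxylates the sphingoid base dihydrosphingosine to phytosphingosine, rose in all strains and ranked 50 by size of rise among 5498 probe sets. In NC it read 7.46, 7.57 and 7.43 with oxygen and 8.79, 8.97 and 9.04 without. In AAC it read 7.21, 7.14 and 7.19 with oxygen and 9.02, 9.19 and 8.84 without. In AAP it read 7.61, 7.64 and 7.21 with oxygen and 9.08, 9.08 and 9.28 without. Aerobic and anaerobic arrays were far apart, and the array labelled AAP aerobic 3 gave the 7.21, just above the AAC range. The rise was 2.73-fold in NC, 3.58-fold in AAC and 3.15-fold in AAP (log2 1.45, 1.84 and 1.66, adjusted p from 1.59e-09 to 2.29e-08). Without that array the AAP rise was 2.86-fold (log2 1.52).

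SCS7 (YMR272C), which hydroxylates the very long fatty acid of ceramide, moved in opposite directions in NC and AAC. In NC it read 8.86, 9.05 and 8.76 with oxygen and 8.33, 8.43 and 8.64 without, a fall by 0.42 on the log2 scale (adjusted p = 0.000813). In AAC it read 8.81, 8.84 and 8.85 with oxygen and 9.24, 9.12 and 9.30 without, a rise of 0.38 (adjusted p = 0.00191). In AAP it read 8.79, 8.87 and 8.79 with oxygen and 8.80, 8.89 and 8.64 without, with a difference of -0.04 that did not pass (adjusted p = 0.732, and -0.06 without the array labelled AAP aerobic 3). The arrays with and without oxygen did not overlap in NC or in AAC, while they did in AAP. Of 1845 probe sets that passed in both NC and AAC, 13 (0.705%) had opposite signs, and SCS7 was among the 10 that were lower in NC and higher in AAC.

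Sphingolipid genes were mixed. Of 14 genes of sphingolipid synthesis, 6 rose and 3 fell, a share of 64.3% against 61.6% of all probe sets. LAC1, a ceramide synthase subunit, rose 2.72-fold (log2 1.45), CSH1, a subunit of inositolphosphorylceramide mannosyltransferase, by 0.86 and LIP1, the accessory ceramide synthase subunit, by 0.73. IPT1, which makes the most complex inositol sphingolipid, fell by 0.40. LAG1, the paralog of LAC1, was named after its values were seen. It showed -0.17 (adjusted p = 0.0268), and this call ended without AAP aerobic replicate 2, NC aerobic replicate 2 or AAC anaerobic replicate 2, after quantile normalization and with the length trend removed. Without the array labelled AAP aerobic 3, AUR1 also passed as lower. The counts were then 6 higher and 4 lower, beside 32.7% and 34.1% of all probe sets.

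The acyl-CoA synthetase genes FAA1 and FAA4 went opposite ways in every strain. FAA1 (YOR317W), the main long-chain acyl-CoA synthetase for imported fatty acids, read 8.83, 8.76 and 8.76 in aerobic NC and 5.97, 6.17 and 6.49 in anaerobic NC. In AAC it read 8.92, 8.93 and 8.99 with oxygen and 6.16, 6.06 and 6.68 without. In AAP it read 8.74, 8.66 and 8.81 with oxygen and 6.13, 6.28 and 5.88 without. The anaerobic arrays remained above the background level of 5.58 and spread more than the aerobic ones (SD 0.199 to 0.334 against 0.035 to 0.076). FAA1 fell 5.94-fold in NC, 6.26-fold in AAC and 6.23-fold in AAP (6.07-fold without the array labelled AAP aerobic 3), and ranked 15 by size of fall in the mean of the strains (log2 -2.62 ± 0.083 SE, adjusted p = 2.13e-13).

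FAA4 (YMR246W), which encodes a second long-chain acyl-CoA synthetase, read 9.02, 8.97 and 8.98 in aerobic NC and 9.98, 9.78 and 9.70 in anaerobic NC. The AAC values were 8.86, 8.91 and 8.80 with oxygen and 9.71, 9.68 and 9.51 without. The AAP values were 8.96, 8.96 and 8.67 with oxygen and 9.91, 9.97 and 9.75 without. The anaerobic arrays were all above the aerobic ones. FAA4 rose 1.78-fold in NC, 1.72-fold in AAC and 2.02-fold in AAP (log2 0.83, 0.78 and 1.01, adjusted p from 1.50e-07 to 2.60e-06). Without the array labelled AAP aerobic 3 the AAP rise was 1.89-fold (log2 0.92).

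Among 4 other genes of acyl-CoA activation and binding, 1 rose and 1 fell, where 61.6% of all probe sets passed. ACB1, the acyl-CoA binding protein, rose by 0.47 on the log2 scale (adjusted p = 5.86e-08). FAA2, which activates medium-chain fatty acids, lay close to background (group means 5.60 to 5.77) and showed -0.06 (adjusted p = 0.0287). It is the 1 fall, and its call ended when any of 6 single arrays was left out, after quantile normalization and with the length trend removed. FAT1 showed -0.06 and FAA3 0.05, and neither passed (adjusted p = 0.181 and 0.316).

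**Figure D2:**
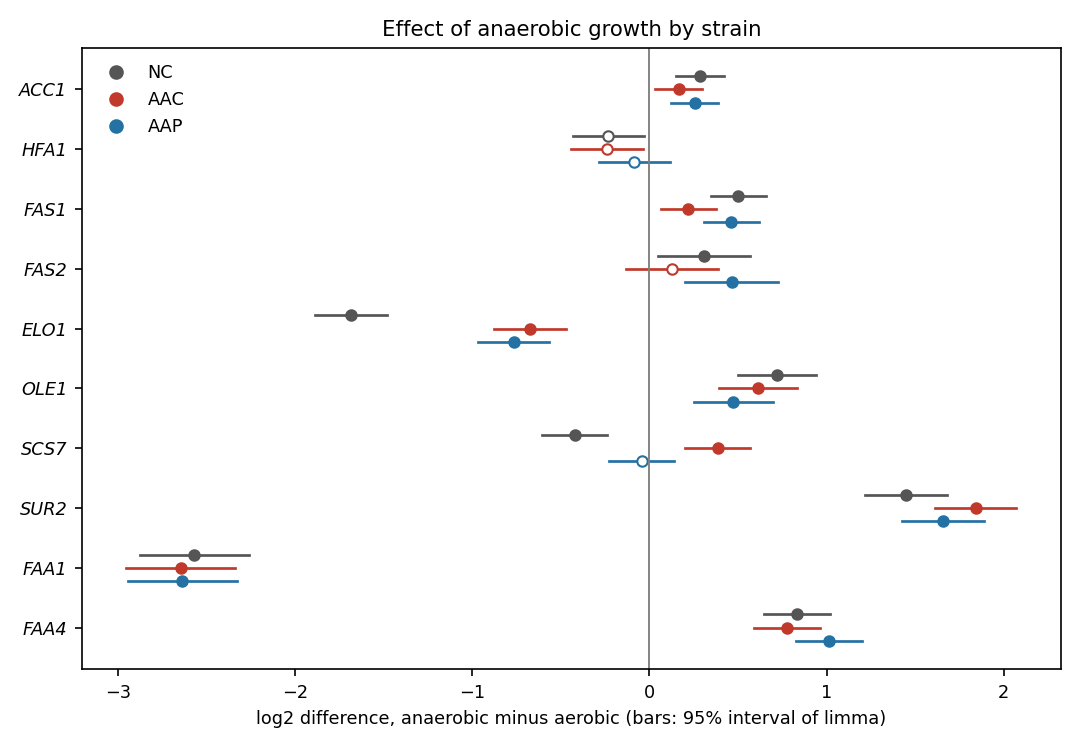
Log2 difference between anaerobic and aerobic cultures (horizontal axis) for the 10 genes in NC, AAC and AAP, with 95% intervals from the limma fit, filled where the adjusted p passed and open where it did not. SCS7 lies at -0.42 in NC and 0.38 in AAC, and ELO1 at -1.68, -0.68 and -0.77 in the 3 strains.

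In NC alone 6 of the 10 genes were higher and 3 lower, where 50.3% of all probe sets passed (22.2% higher, 28.0% lower). In AAC alone 6 were higher and 2 lower, where 44.5% passed (21.7% higher, 22.8% lower). In AAP alone 6 were higher and 2 lower, where 38.4% passed (21.2% higher, 17.2% lower). Without the array labelled AAP aerobic 3 HFA1 passed as lower in NC and in AAC, and 9 became 10 in NC and 8 became 9 in AAC, where 56.2% and 51.6% of all probe sets passed. AAP kept its counts, with 41.9% of all probe sets passing. OLE1, ACC1, FAS1, SUR2 and FAA4 rose in all 3 strains, and ELO1 and FAA1 fell in all 3. Some small differences rested on single arrays or settings. FAS2 in NC (adjusted p = 0.0484) did not pass when any of 5 of the 6 NC arrays was left out, and ACC1 in AAC (adjusted p = 0.0448) did not pass when any of 5 of the 6 AAC arrays was left out. FAS1 in AAC (adjusted p = 0.0240) did not pass after quantile normalization (adjusted p = 0.155) or without any of 4 single AAC arrays. ACC1 in AAP (adjusted p = 0.00450) did not pass with the trend with coding length removed (adjusted p = 0.127). The calls for ELO1, SUR2, FAA1, FAA4, OLE1 and the NC and AAC calls for SCS7 held under every alternative tried.

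With oxygen, none of the 10 genes passed in any of the 3 strain comparisons by limma. Over all probe sets 19.4% passed for AAC against NC, 0.200% for AAP against NC and 3.97% for AAC against AAP. An unadjusted limma p under 0.05 was found for 1883, 515 and 1165 of all 5498 probe sets in the same order. Of the 10 genes, 1, 0 and 1 had such a p. The 1 gene was SUR2 in both cases. Its aerobic AAC arrays were below all NC arrays, with a log2 difference of -0.31 (adjusted p = 0.0598), and below the AAP arrays, in part only just, with -0.31 (adjusted p = 0.117). Without the array labelled AAP aerobic 3 the SUR2 differences were -0.31 (adjusted p = 0.0110) and -0.45 (adjusted p = 0.00221), and 30.0% and 28.1% of all probe sets passed in these comparisons. For the other 9 genes the largest 95% interval bound in any aerobic comparison was 0.52 in size, on the log2 scale, for FAA1 in AAC against AAP.

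Without oxygen, ELO1 and SCS7 set the strains apart. Of the 10 genes, 4 passed for AAC against NC (12.0% of all probe sets), 3 for AAP against NC (21.0%) and 3 for AAC against AAP (33.0%). ELO1 was 2.01-fold higher in AAC than in NC (log2 1.01 ± 0.095 SE, adjusted p = 7.66e-06) and 1.81-fold higher in AAP than in NC (0.85, adjusted p = 7.41e-05). AAC and AAP did not differ beyond the threshold for ELO1 (0.15, 95% interval -0.05 to 0.36, adjusted p = 0.225). SCS7 was 1.69-fold higher in AAC than in NC (log2 0.75 ± 0.086 SE, adjusted p = 4.45e-05), by 0.31 higher in AAP than in NC (adjusted p = 0.0219) and by 0.44 higher in AAC than in AAP (adjusted p = 0.00174). For SCS7 the AAC arrays (9.12 to 9.30) stood above all others, while AAP and NC met at 8.64.

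Synthase, carboxylase and desaturase genes differed between anaerobic strains by at most 0.36 in size on the log2 scale. FAS1 was lower in AAC than in NC (log2 -0.34, adjusted p = 0.00665) and than in AAP (-0.23, adjusted p = 0.0247), and ACC1 was lower in AAC than in NC (-0.21, adjusted p = 0.0373). OLE1 was lower in AAP than in NC (-0.36, adjusted p = 0.0279) and FAA4 lower in AAC than in AAP (-0.24, adjusted p = 0.0443). FAS2 showed -0.31 for AAC against NC (adjusted p = 0.119) and -0.31 for AAC against AAP (adjusted p = 0.0661). SUR2, FAA1 and HFA1 passed in none of the 3 comparisons. The ACC1, OLE1 and FAA4 calls, the SCS7 call for AAP against NC and the FAS1 call against AAP each ended when single arrays were left out. Without AAP anaerobic replicate 1 or NC anaerobic replicate 2 the count for AAP against NC was 1. Fewer of all probe sets also passed there without NC anaerobic replicate 2 (440, against 1153 with all arrays). The count for AAC against AAP was 1 without AAC anaerobic replicate 3, AAP anaerobic replicate 1 or AAP anaerobic replicate 2. In that comparison 1165 of all probe sets passed without AAP anaerobic replicate 1, against 1814 with all arrays. Counts over all probe sets are not given for the other arrays named here. Without the array labelled AAP aerobic 3, which here enters only the shared estimate of spread, FAS2 also passed for AAC against NC, and HFA1 and FAS2 for AAC against AAP, which gave 5 genes in each comparison (19.4% and 41.4% of all probe sets). The FAS1 difference from AAP was -0.02 after the trend with coding length was removed.

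**Figure D3:**
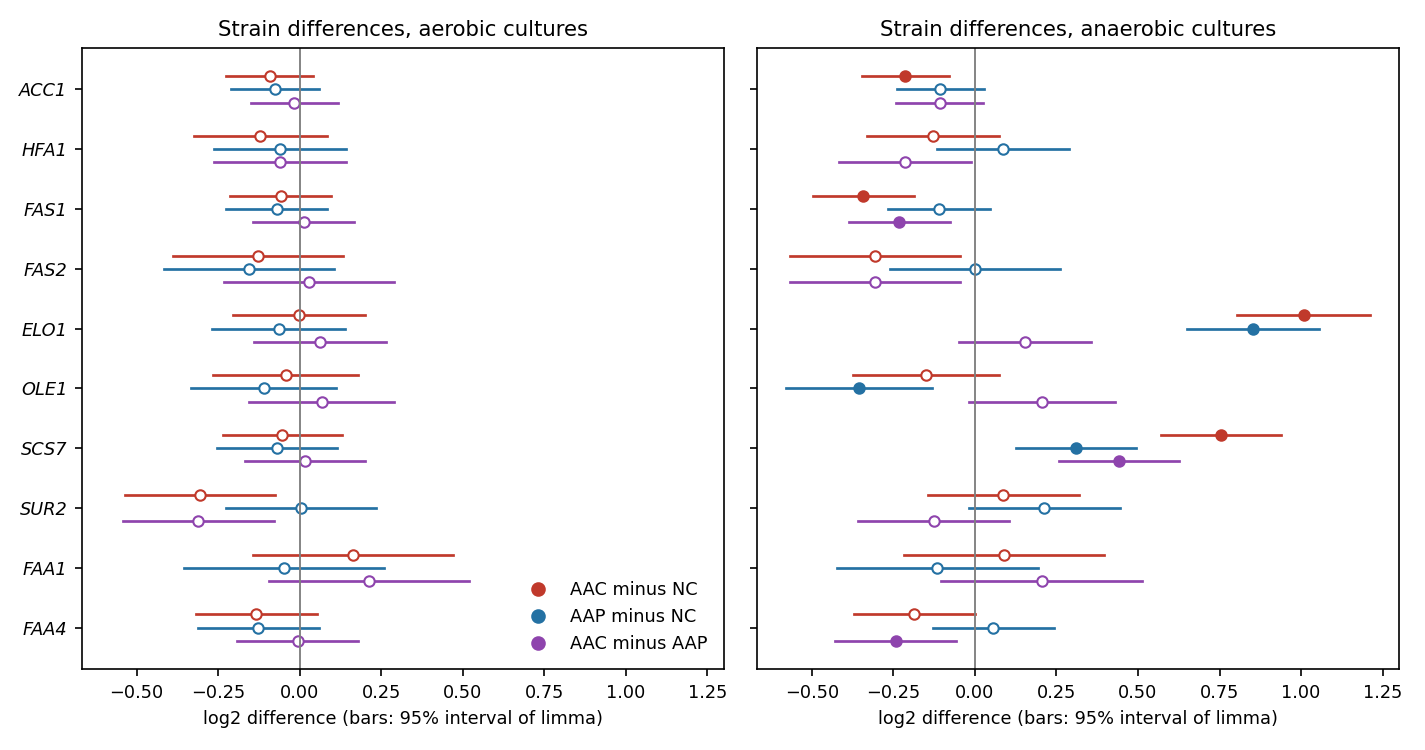
Log2 difference between strains (horizontal axis) for the 10 genes in aerobic and in anaerobic culture, with 95% intervals from the limma fit, filled where the adjusted p passed. No gene is filled in aerobic culture, and in anaerobic culture ELO1 lies at 1.01 for AAC against NC and 0.85 for AAP against NC.

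The test of whether oxygen acted differently between strains passed for ELO1 and SCS7. For AAC and NC 2 of the 10 genes passed, beside 2.87% of all probe sets. The ELO1 response differed by 1.01 ± 0.134 (log2, SE, adjusted p = 0.000806), ranking 4 among the positive differences, and the SCS7 response by 0.81 ± 0.122 (adjusted p = 0.00251), ranking 15. For AAP and NC 1 gene passed, beside 12.5% of all probe sets: ELO1 with 0.92 ± 0.134 (adjusted p = 0.00117). SCS7 gave 0.38 there (adjusted p = 0.0541), and it passed when AAP aerobic replicate 2, NC aerobic replicate 3, AAP anaerobic replicate 3 or NC anaerobic replicate 3 was left out. For AAC and AAP none passed by limma, beside 3.55% of all probe sets. There, 2 of the 10 genes had an unadjusted p under 0.05, beside 1157 of all 5498 probe sets. The SCS7 value for AAC and AAP was 0.43 (adjusted p = 0.0672). These 3 interactions share groups. The ELO1 and SCS7 calls held under every alternative tried. Without the array labelled AAP aerobic 3, which enters the AAC and NC comparison only through the shared estimate of spread, FAS1 (-0.28, adjusted p = 0.0287) and SUR2 (0.39, adjusted p = 0.0398) passed as well, beside 12.1% of all probe sets.

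**Figure D4:**
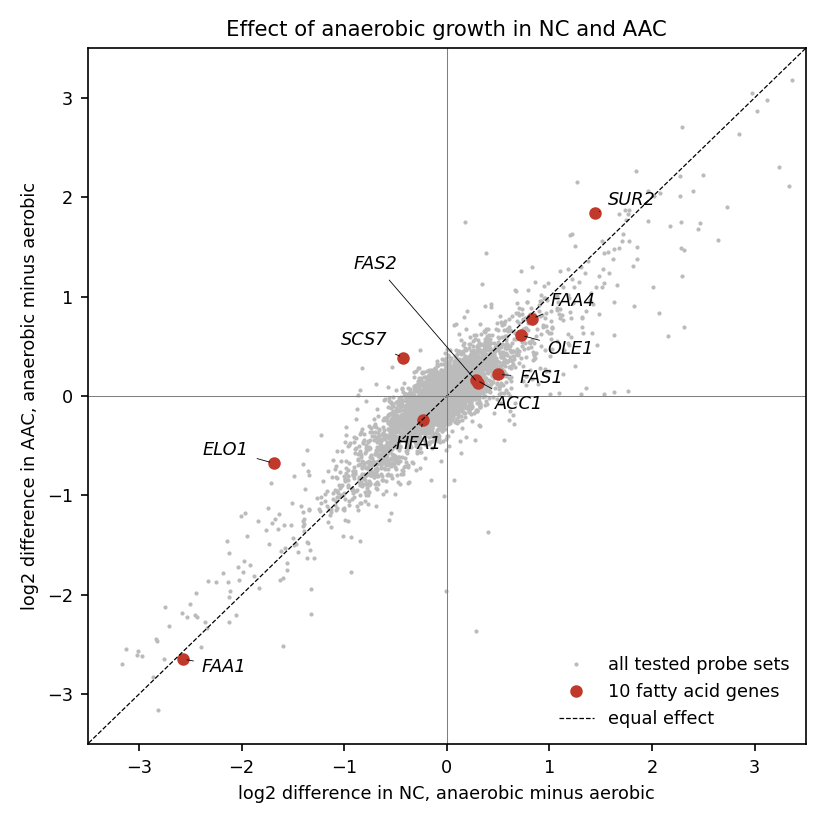
Log2 difference between anaerobic and aerobic cultures in NC (horizontal axis) against that in AAC (vertical axis), for all tested probe sets (grey) and the 10 genes (named), with the axes limited to 3.5 log2 units so that 25 probe sets lie outside. SCS7 lies in the quadrant lower in NC and higher in AAC, and ELO1 lies above the line of equal values.

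Nearby lipid pathways gave further counts for the mean oxygen effect, to be read beside 31.2% of all probe sets higher and 30.4% lower. In glycerolipid acylation 4 of 6 genes rose and 1 fell: ALE1, a lysophospholipid acyltransferase, 2.08-fold (log2 1.06), SLC1, which makes phosphatidic acid, by 0.72, SCT1, a glycerol-3-phosphate acyltransferase, by 0.21 and LRO1, which makes triacylglycerol, by 0.18. The fall was that of DGA1, named after its values were seen, with -0.12 (adjusted p = 0.0292), and its call ended when any of 5 single arrays was left out and with the length trend removed. In mitochondrial fatty acid synthesis 1 of 7 rose and 4 fell. ACP1, the acyl carrier protein, fell by 0.27, CEM1, a ketoacyl synthase, by 0.20 and ETR1, the enoyl reductase, by 0.28, and OAR1 showed -0.17 with no array above background in any group. The rise was that of MCT1, named after its values were seen, with 0.15 (adjusted p = 0.0438), and its call ended when any of 12 single arrays was left out. Among 8 phospholipid genes that respond to inositol, 2 rose and 1 fell: PIS1, phosphatidylinositol synthase, by 0.72, INO1, inositol-phosphate synthase, by 0.61 (SE 0.181), and PSD1, phosphatidylserine decarboxylase, fell by 0.38. CDS1 in that list showed -0.14 (adjusted p = 0.0673). Without the array labelled AAP aerobic 3, CDS1 passed as lower. The counts of that list were then 2 higher and 2 lower, beside 32.7% and 34.1% of all probe sets.

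INO1 spread widely in aerobic AAP, at 11.46, 10.18 and 9.61. Among the 4 genes that modify acetyl-CoA carboxylase, REG1, a phosphatase subunit, showed -0.10 (adjusted p = 0.0274), and BPL1, the biotin ligase, SNF1, the kinase that inhibits the carboxylase, and SAK1, which activates that kinase, did not pass (0.04, 0.03 and 0.01). The REG1 call ended when any of 5 single arrays was left out.

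**Figure D5:**
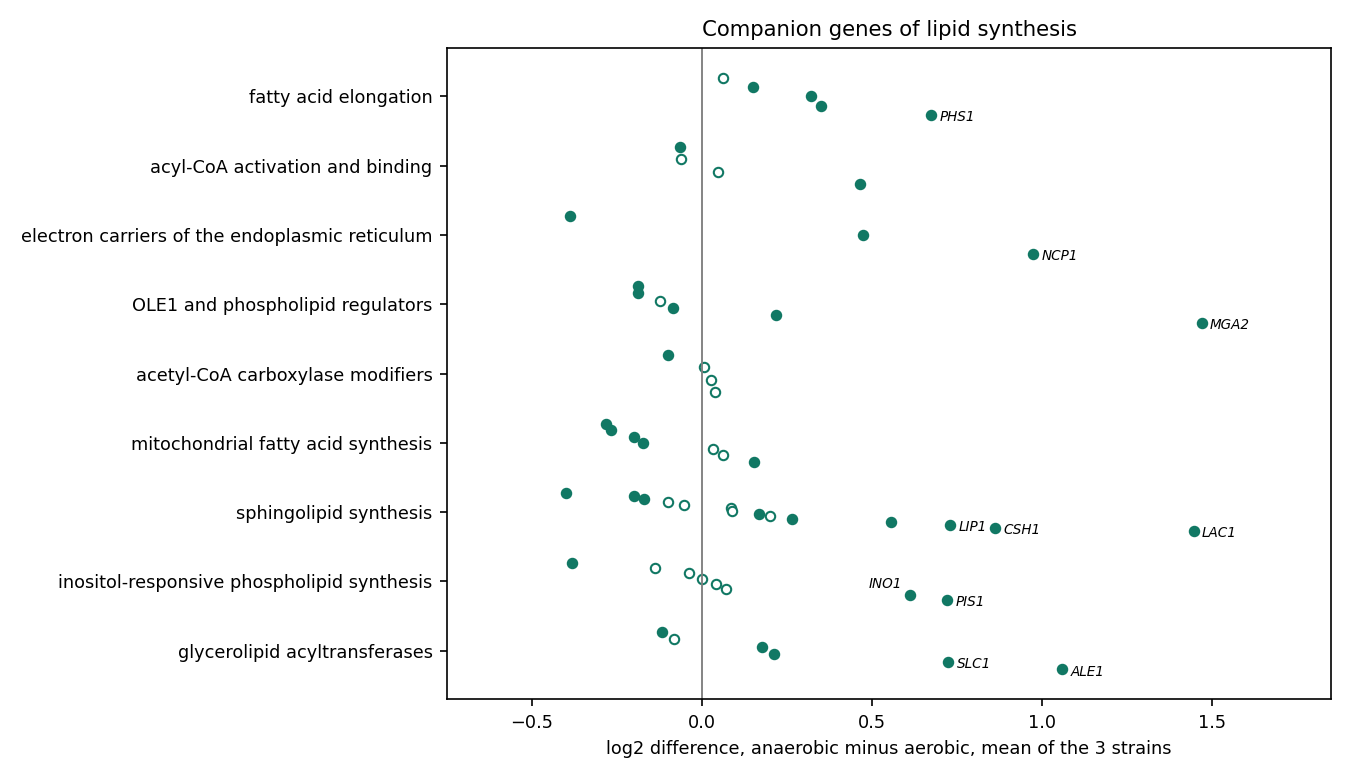
Log2 difference between anaerobic and aerobic cultures in the mean of the 3 strains (horizontal axis) for 57 genes in 9 related lists (rows), filled where the adjusted p passed and open where it did not. MGA2 at 1.47, LAC1 at 1.45 and ALE1 at 1.06 lie farthest to the right.

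Profiles over the 18 arrays were compared with the 467 probe sets whose group means spanned at least 1 log2 unit, as a description. All these profiles share the oxygen contrast and the arrays. The highest Pearson r with SUR2 were those of UTR4 (0.994), TIR3 (0.992) and LAC1 (0.991). FAA1 was closest to PET9 (0.995), the mitochondrial ADP/ATP carrier, CYT1 (0.993), cytochrome c1, and NDE1 (0.992), an external NADH dehydrogenase. FAA4 was closest to PLB2 (0.992), CSR1 (0.990) and SRO77 (0.984). The profile of ELO1 was most like those of NCE102 (0.970), HXT1 (0.956), a glucose transporter, and LYS20 (0.942), a homocitrate synthase. For OLE1 they were ERG28 (0.941), MGA2 (0.937) and MAL11 (0.936), and for FAS1 GSY1 (0.956), HEM14 (0.944) and SRO77 (0.940). ACC1 (at most 0.866), FAS2 (0.833), HFA1 (0.797) and SCS7 (0.759, with CPA1) had no profile as close.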

How the data were processed

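Per the labels' protocols, 18 batch cultures (500 ml, 30 °C, 600 rpm) each gave 250 ng of total RNA for an Affymetrix yeast array. The authors deposited 1 log2 value per probe set and array, on a scale read from its range of 4.85 to 12.81. Per the submitters' processing notes, PLIER and R 2.10.1 were used. Normalization and log base are not given in the sources cited, and folds assume log2. The platform annotation gave 1 gene for 7244 of 10928 probe sets, several for 1 and none for 3683, and 12 symbols were updated.

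A model with 1 mean per group was fitted with limma 3.58.1 in R 4.3.3 to 5498 S. cerevisiae probe sets (12 residual and 3.10 prior degrees of freedom), with 13 contrasts, two-sided p-values adjusted by Benjamini-Hochberg over all probe sets, and a threshold of 0.05. The procedure was tested on simulated data. The 10 genes and the 9 lists of related genes were chosen with earlier results of these data known. All 10 are named, with up to 4 genes per list by smallest p and the 3 genes with the most similar profile.

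Alternatives were quantile normalization, median centring, a filter on dim probe sets, trend and robust eBayes, restricting the fit to the groups compared, a block for the replicate number, removal of a trend with coding length (loess span 0.5), and leaving out each array. The length trend with the replicate block, and the recomputed lists, were added after seeing the data. No label ties a replicate number to a batch. Same-numbered arrays deviated together (all 3 correlations above 0.1) only for NC with AAC (0.126, 0.233 and 0.326) and AAC with AAP (0.168, 0.249 and 0.456) in aerobic culture. The largest single correlations were those of anaerobic NC with AAC, at 0.645 for replicate 1 and 0.459 for replicate 3. Replicate 2 of that pair gave -0.024. No coordinates or sequences are given.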

Additional observations from a re-analysis of the deposited data

Results flagged for a closer look

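The oxygen response of 2 genes differed between strains by the interaction test of limma across all probe sets. ELO1 fell less in AAC than in NC, by 1.01 log2 units (adjusted p = 0.000806), and less in AAP than in NC, by 0.92 (adjusted p = 0.00117). SCS7 fell in NC and rose in AAC, a difference of 0.81 (adjusted p = 0.00251). NC also had the lowest signal of the plasmid isomerase gene, and strain and plasmid isomerase signal cannot be told apart in these differences. Groups of 3 arrays were not tested for outlying samples.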

How the results depend on the processing

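The count of genes for the mean oxygen effect was 9 of 10 under all 24 alternatives, beside 61.6% of all probe sets in the main fit. No value of the 10 genes changed sign where it passed the test before or after. Of 130 such values, 35 changed sign under some alternative without passing on either side. Other counts moved by more than 1.5 times, and the cause was not tested. For AAC against NC in aerobic culture the count of 0 became 1 after quantile normalization, beside 1007 of all 5498 probe sets. It became 4 with only the groups compared, beside 2079 of all probe sets (1067 in the main fit). Leaving out 1 array gave 0 to 1, beside 554 to 1650 of all probe sets. For AAC against AAP in aerobic culture it was 0 to 1. The 1 came without the array labelled AAP aerobic 3, where 28.1% of all probe sets passed. Without oxygen, AAP against NC went from 3 to 5 with the length trend removed and to 1 with only the groups compared. Over all probe sets these settings gave 1222 and 954 (1153 in the main fit). Leaving out arrays gave 1 to 3, beside 440 to 1749 of all probe sets. AAC against AAP went from 3 to 1 and 5, where these settings gave 1768 and 1980 of all probe sets (1814 in the main fit). Leaving out arrays gave 1 to 5 there, beside 1165 to 2276. When arrays were left out, the interaction count ranged from 2 to 4 for AAC and NC, beside 61 to 667 of all probe sets. For AAP and NC it was 1 to 2, beside 236 to 1338. That for AAC and AAP was 1 after median centring, beside 168 of all probe sets. With the replicate block, the 10 genes gave 0 calls in the aerobic comparisons of AAC with NC and with AAP. Over all probe sets the counts there went from 1067 to 1154 and from 218 to 140. Over all probe sets, fits to only the groups compared gave 2079 for 1067 (AAC against NC, aerobic), 1 for 11 (AAP against NC) and 0 for 218 (AAC against AAP), and for the interactions 582 for 158 (AAC and NC), 308 for 687 (AAP and NC) and 92 for 195 (AAC and AAP, 87 with the length trend removed). Leaving out 1 array gave 554 to 1650, 4 to 60 and 5 to 1546 in the aerobic comparisons, 326 to 1069, 440 to 1749 and 1165 to 2276 in the anaerobic ones, and 61 to 667, 236 to 1338 and 69 to 424 in the interactions. UBX2 went from -0.09 to 0.0104 with the length trend removed. ACC1 and FAS2 in AAP did not pass with that trend removed (adjusted p = 0.127 and 0.0540).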
